A study of Homo sapiens with 10 samples.

Results

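HLA class I and antigen processing was examined as 9 genes, HLA-B, HLA-C, HLA-E, B2M, TAP1, TAP2, TAPBP, PSMB8 and PSMB9, of the 61533 genes in the count tables. They were chosen as a list and found by their Ensembl gene identifiers. The RNA-seq data compared T24, a human bladder cancer cell line sensitive to cisplatin, with T24R2, a derivative of T24 selected for resistance by serial desensitization to the drug, with 5 libraries of each line from day 3 of culture in RPMI with fetal bovine serum and antibiotics. According to the methods of the study, T24R2 is kept in medium with cisplatin, but the labels name 1 medium for the samples of both lines and no drug, so resistance and exposure to cisplatin cannot be told apart. The labels do not say whether the replicates came from separate cultures, so p-values measure only the spread between these libraries, which may be technical. Both lines are single established lines, and T24R2 is 1 derivative. In bulk RNA, fewer cells that express a gene and less RNA per cell cannot be told apart.

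Class I molecules present peptides of intracellular proteins to CD8+ T cells and consist of a polymorphic heavy chain, such as HLA-B or HLA-C, bound to the light chain beta-2-microglobulin, which B2M encodes. HLA-E is a heavy chain of limited variation that displays signal peptides of other class I chains to the inhibitory receptor CD94/NKG2A of natural killer cells. Peptides are cut by the proteasome, in which PSMB8 and PSMB9 encode inducible catalytic subunits that take the place of PSMB5 and PSMB6, and are carried into the endoplasmic reticulum by the transporter made of TAP1 and TAP2. Tapasin, the product of TAPBP, holds empty class I molecules at that transporter together with calreticulin and PDIA3. In many cell types these genes respond to interferon and to the transactivator NLRC5, through promoter elements that include the interferon-stimulated response element (ISRE) and the X and Y boxes.

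Of the 9 genes, 5 were lower in T24R2 than in T24 and 0 were higher, by the quasi-likelihood test of edgeR, where a call needed both an adjusted p (Benjamini-Hochberg) under 0.05 and a log2 fold change beyond 0.5 in either direction. The 5 were HLA-E, B2M, TAP1, TAPBP and PSMB9. With no scaling beyond library size, 2 of them remained called, HLA-E and TAPBP, and B2M (-0.48), TAP1 (-0.44) and PSMB9 (-0.41) missed the fold limit on the log2 scale. HLA-B, HLA-C, TAP2 and PSMB8 were not called, and all 9 had passed the filter on low counts. Over all 16181 genes tested, 26.5% were called lower and 24.9% higher, and the adjusted p-value alone was under 0.05 for 75.5%. It was under 0.05 for 6 of the 9, the 5 called genes and PSMB8. The median log2 fold change of the 9 was -0.58, beside 0.01 over all genes tested.

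Promoter sequence is shown because several members are known to be induced together, and the called and uncalled members can be compared by it. RefSeq gives windows around the gene start on GRCh38.p14 for 8 of the 9 members, 10 windows in all, and the 250 bases before the start were searched on both strands. Positions are counted back from the start, with -1 as the base before it, and of the 2 windows of TAP1 the one farther upstream is shown. The letters searched and marked were the ISRE core GAAANNGAA, the kappaB-like GGGANNNCC, the core TGACG of the X2 box and the CCAAT letters of the Y box. Among 35116 windows of all genes these were found in 6.88%, 20.1%, 21.2% and 32.01%, respectively. Among the 10 windows of the members they were found in 4, 4, 6 and 5. The GAS motif TTCNNNGAA was searched as well and is not marked. It was found in 6.57% of all windows and in 2 of the 10, which belong to PSMB8 and TAP1. The stretches below run 5′ to 3′ on the strand of the gene, from 5 bases before the first to 5 bases after the last match where the window allows. Capitals mark the matches to the 4 motifs other than GAS, and adjacent or overlapping matches run together.
HLA-B, chr6:31357226-31357360, minus strand: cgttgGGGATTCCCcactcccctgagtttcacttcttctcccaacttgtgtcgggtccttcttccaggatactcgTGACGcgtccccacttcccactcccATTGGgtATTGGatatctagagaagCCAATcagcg
HLA-C, chr6:31272139-31272289, minus strand: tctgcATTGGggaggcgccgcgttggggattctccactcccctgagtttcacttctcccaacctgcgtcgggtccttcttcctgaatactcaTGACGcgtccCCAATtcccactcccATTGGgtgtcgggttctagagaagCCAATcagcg
B2M, chr15:44711368-44711477, plus strand: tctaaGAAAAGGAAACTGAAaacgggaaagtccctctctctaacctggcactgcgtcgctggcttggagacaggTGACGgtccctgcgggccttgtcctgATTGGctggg
TAP1, chr6:32853818-32853954, minus strand: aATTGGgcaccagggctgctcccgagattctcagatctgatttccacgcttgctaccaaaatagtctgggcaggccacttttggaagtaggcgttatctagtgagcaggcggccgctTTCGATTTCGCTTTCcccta
TAP2, chr6:32838765-32838802, minus strand: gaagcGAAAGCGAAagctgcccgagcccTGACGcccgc
TAPBP, chr6:33314079-33314305, minus strand: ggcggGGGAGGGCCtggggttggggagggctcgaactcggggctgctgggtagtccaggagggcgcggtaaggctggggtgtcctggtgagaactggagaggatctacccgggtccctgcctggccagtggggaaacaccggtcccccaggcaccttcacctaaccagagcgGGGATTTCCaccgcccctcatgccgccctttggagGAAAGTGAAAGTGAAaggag
The ISRE core matched in the windows of B2M, TAP1, TAPBP and TAP2. The windows of HLA-B, HLA-C, PSMB8 and PSMB9 held no match to the letters GAAANNGAA, and those of PSMB8 and PSMB9 are not shown. The search took exact letters only, so an ISRE that differs from them at a fixed base would be missed, and these promoters may still hold one. PSMB9 was thus called lower without such a match in the 250 bases searched, and HLA-E, with the largest change, was the member that had no window. The PSMB9 window (chr6:32853942-32854241, plus strand) overlaps the TAP1 window shown (chr6:32853655-32853954, minus strand), and the genes run apart from these starts. The paired cores of TAP1 therefore also lie upstream of that PSMB9 start, beyond the 250 bases searched. In B2M the matches covered positions -144 to -130 from the start, in TAPBP -20 to -6 and in TAP1 -133 to -119, in each case as a pair of overlapping cores. TAP2 had a single core at -58 to -50. HLA-B held the X2 core at -106 to -102 and HLA-C at -105 to -101, both with Y box letters at -56 to -52, and the kappaB-like letters at -176 to -168 of HLA-B had no match in HLA-C. Genes with the ISRE core were therefore found both among those called lower and, with TAP2, among those not called. A match of letters is a description and not a site of binding.

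The largest change was that of HLA-E. Its level, in counts scaled to library size (CPM) with the TMM method of edgeR, was 437, 350, 376, 470 and 364 in T24 and 173, 151, 135, 148 and 152 in T24R2. Every T24R2 library lay below every T24 library. The mean fell from 399 ± 51.8 to 152 ± 13.6 CPM (SD, n = 5), to 38.1% of T24, with a log2 fold change of -1.39 ± 0.06 (SE) and an adjusted p of 2.61e-22. An exact two-sided permutation test of the CPM gave p = 0.00794, the smallest that 5 against 5 libraries allow. HLA-E lies at chr6:30489509-30494194 on the plus strand (hg38).

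The classical heavy chains were low in both lines. HLA-B, at chr6:31353872-31357188, had 9.76, 6.63, 9.03, 11.9 and 9.18 CPM in T24 and 10.4, 7.89, 9.98, 7.93 and 8.85 CPM in T24R2. The ranges overlapped, and the difference of -0.05 ± 0.14 on the log2 scale did not pass the test (95% confidence interval -0.34 to 0.24, adjusted p = 0.768). HLA-C, at chr6:31268749-31272130, had 8.72, 5.05, 6.63, 7.96 and 7.67 CPM in T24 and 6.79, 5.37, 5.18, 5.88 and 5.31 CPM in T24R2. Its ranges also overlapped, and its log2 fold change of -0.34 ± 0.16 had an interval of -0.67 to -0.01 and an adjusted p of 0.0609. These values rest on 48 to 113 fragments per library, so that a difference of the size of that in B2M would lie outside the interval of HLA-B but inside that of HLA-C.

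Counts of the heavy chains carry an uncertainty of their own, because these genes share sequence and vary between people. The coding sequences of the reference transcripts were 92.4% identical between HLA-B and HLA-C, 86.8% between HLA-B and HLA-E and 86.8% between HLA-C and HLA-E. No stretch of 150 bases of these 3 transcripts was found in a transcript of another gene, but 2.56%, 6.76% and 6.16% of the 50-base stretches of HLA-B, HLA-C and HLA-E were. Reads from alleles of T24 that differ from the reference may be lost or assigned to a related gene, since only uniquely mapped reads were kept. The summed counts of HLA-B, HLA-C, HLA-E, HLA-F, HLA-G and the class I pseudogenes HLA-H, HLA-J, HLA-K and HLA-L had a log2 fold change of -1.22 ± 0.06 (adjusted p = 4.97e-21). HLA-E alone gave 3291 to 4374 counts per T24 library to this sum, beside 63 to 111 from HLA-B.

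B2M had the most counts of the 9 genes in every library. T24 had 710, 642, 709, 756 and 665 CPM and T24R2 had 426, 459, 453, 459 and 437 CPM, without overlap. The mean fell from 696 ± 44.03 to 447 ± 14.8 CPM, to 64.2% of T24 (log2 fold change -0.64 ± 0.04, adjusted p = 2.34e-16). B2M is the only member outside chromosome 6, at chr15:44711487-44718851 on the plus strand.

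Of the transporter genes, TAP1 was called and TAP2 was not. TAP1, at chr6:32845209-32853816, had 45.8, 40.7, 36.6, 47.9 and 41.2 CPM in T24 and 27.7, 28.8, 28.0, 28.0 and 27.3 CPM in T24R2. The T24R2 libraries lay within a narrow band below the T24 range, and the log2 fold change was -0.60 ± 0.08 (adjusted p = 4.06e-09). TAP2, at chr6:32821833-32838739, had 3.32, 3.26, 6.17, 5.06 and 3.56 CPM in T24 and 4.22, 3.64, 3.93, 4.37 and 4.92 CPM in T24R2, so that all T24R2 libraries fell inside the T24 range. Its log2 fold change of -0.02 ± 0.20 had an interval of -0.43 to 0.40 (adjusted p = 0.947). TAP2 had 31 to 54 fragments per library, and 31.9% of its exon bases lie under another annotated gene on the same strand that had 0 counts in all libraries. Fragments shared by genes on one strand are not counted under the settings in the file headers, so its level may be an underestimate. TAP1 shares 12.4% of its exon bases with PSMB8-AS1 on the opposite strand, and with the counts of that gene taken off its log2 fold change was -0.87.

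TAPBP, the gene of tapasin, had the second largest change of the 9. At chr6:33299694-33314254, it had 50.2, 49.8, 50.7, 57.3 and 52.8 CPM in T24 and 24.3, 23.8, 22.5, 25.2 and 22.4 CPM in T24R2. The lines did not overlap. The mean fell from 52.2 ± 3.11 to 23.6 ± 1.21 CPM, to 45.3% of T24 (log2 fold change -1.14 ± 0.07, adjusted p = 1.61e-17). Of its exon bases 28.4% lie opposite an unnamed gene that had 0 to 1 counts.

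Of the genes of the inducible proteasome subunits, PSMB9 was called lower and PSMB8 was not called. PSMB9, at chr6:32844136-32859851, had 30.3, 25.5, 27.9, 29.4 and 27.3 CPM in T24 and 18.6, 20.5, 18.4, 16.7 and 19.9 CPM in T24R2, lower in each T24R2 library (log2 fold change -0.58 ± 0.09, adjusted p = 1.94e-07). PSMB8, at chr6:32840717-32844679, had 35.4, 38.8, 34.6, 38.2 and 30.7 CPM in T24 and 50.01, 40.7, 41.8, 41.9 and 41.2 CPM in T24R2. All T24R2 libraries of PSMB8 were above all T24 libraries, and its log2 fold change of 0.28 ± 0.08 passed the adjusted p-value (0.00114) but not the fold limit. The PSMB8 level of T24R2 replicate 1 stood above the other 4 libraries, and without that library the log2 fold change was 0.22. PSMB8 overlaps PSMB8-AS1 on the opposite strand over 17.3% of its exon bases and PSMB9 over 3.99%, and part of its fragments cannot be told apart from those of these genes. With the counts of PSMB8-AS1 taken off, its log2 fold change was 0.34. Across the members, the libraries of the lines did not overlap for 6 of 9 genes, beside 61.2% of all genes tested.

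**Figure D1:**
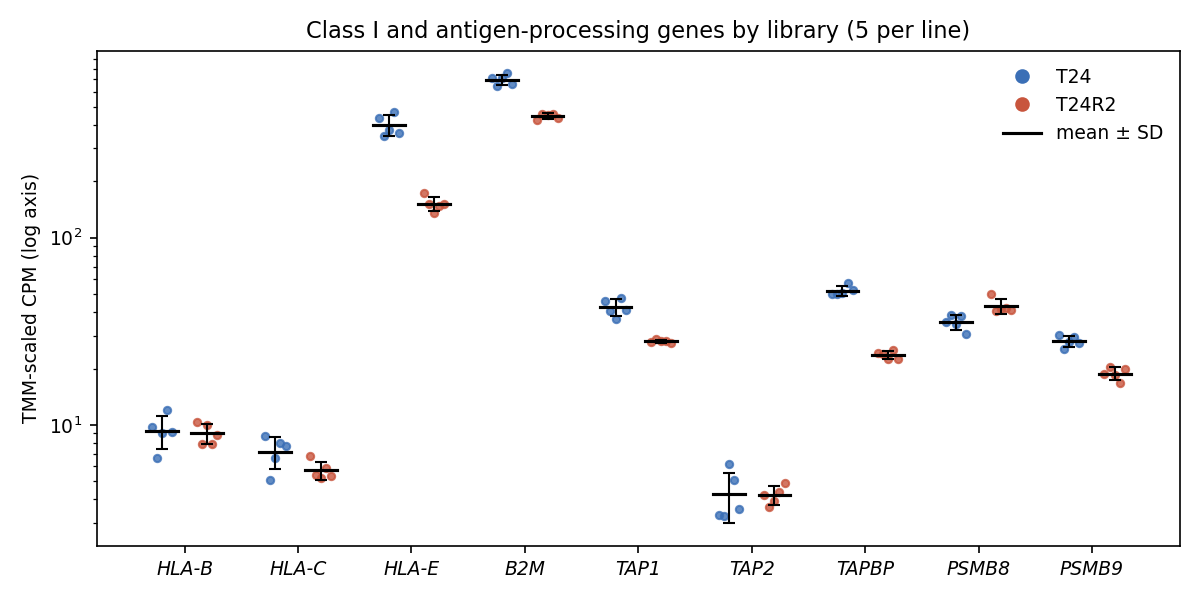
Levels of the 9 genes in each library, in TMM-scaled CPM on a log axis, with T24 in blue and T24R2 in red, and with black bars for the mean ± SD of 5 libraries. The lines are apart for HLA-E, B2M, TAP1, TAPBP, PSMB8 and PSMB9, with PSMB8 alone higher in T24R2, and overlap for HLA-B, HLA-C and TAP2.

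Levels can be compared between genes only per length. Per kb of annotated exon, HLA-E had 137 ± 17.7 CPM and B2M 128 ± 8.09 CPM in T24, and their libraries overlapped. TAPBP, PSMB8, TAP1 and PSMB9 followed at 10.6 to 8.41 CPM per kb, each overlapping the next in order. HLA-B and HLA-C were at 3.09 and 2.87 CPM per kb and TAP2 was last at 0.674. In T24R2 B2M was first at 82.2 ± 2.72 and HLA-E second at 52.0 ± 4.67 CPM per kb, without overlap, and PSMB8 came next at 12.4. TAPBP was at 4.80 CPM per kb in T24R2, after TAP1 and PSMB9, and its libraries overlapped those of PSMB9. The order depends on the length used. Per kb of the canonical transcript, which is 943 bases for B2M and 2548 bases for HLA-E, they had 738 and 157 CPM in T24. On that scale PSMB8 had 31.6 and TAPBP 15.1 CPM in T24, and TAPBP came after PSMB8, PSMB9 and TAP1 in both lines by its mean, with T24 libraries that overlapped those of TAP1.

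Ratios within a library do not depend on the scaling between libraries. Each inducible catalytic subunit was set against the constitutive subunit that it replaces, as log2 ratios of counts per kb, and 5 ratios were tested by exact two-sided permutation, with adjustment over the 5. PSMB8 to PSMB5 was -2.82 ± 0.13 in T24 and -2.55 ± 0.13 in T24R2, a rise of 0.28 without overlap (p = 0.00794, adjusted p = 0.00992, exact permutation). PSMB9 to PSMB6 was -2.86 ± 0.17 in T24 and -3.98 ± 0.11 in T24R2, lower in every T24R2 library, with a difference of -1.12 (p = 0.00794, adjusted p = 0.00992, exact permutation). PSMB10, which takes the place of PSMB7, went from -3.09 ± 0.23 to -3.81 ± 0.17 relative to it, a difference of -0.72 without overlap (p = 0.00794, adjusted p = 0.00992, exact permutation). Relative to the subunit it replaces, the transcript of 2 of the 3 inducible subunits was thus lower in T24R2 and that of PSMB8 was higher. On the linear scale, PSMB9 was at 0.139 ± 0.0155 of PSMB6 in T24 and at 0.0637 ± 0.00488 in T24R2, and PSMB8 was at 0.142 ± 0.0128 and 0.172 ± 0.0160 of PSMB5.

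The ratio of TAP1 to TAP2 was 3.80 ± 0.48 in T24 and 3.19 ± 0.19 in T24R2, with overlapping libraries. The difference of -0.62 had an exact permutation p of 0.0476 and an adjusted p of 0.0476. It did not hold when 1 library was left out, except without T24 replicate 3, since p was then between 0.0635 and 0.0952 in the exact permutation tests. HLA-B and HLA-C summed were at -4.44 ± 0.23 of B2M in T24 and at -3.97 ± 0.18 in T24R2, higher by 0.48 without overlap (p = 0.00794, adjusted p = 0.00992, exact permutation). The classical heavy chain transcripts were thus higher relative to the light chain transcript in T24R2. The ratio of HLA-E to B2M was 0.09 ± 0.11 in T24 and -0.66 ± 0.17 in T24R2, a ratio added after the values were seen and given with no test.

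**Figure D2:**
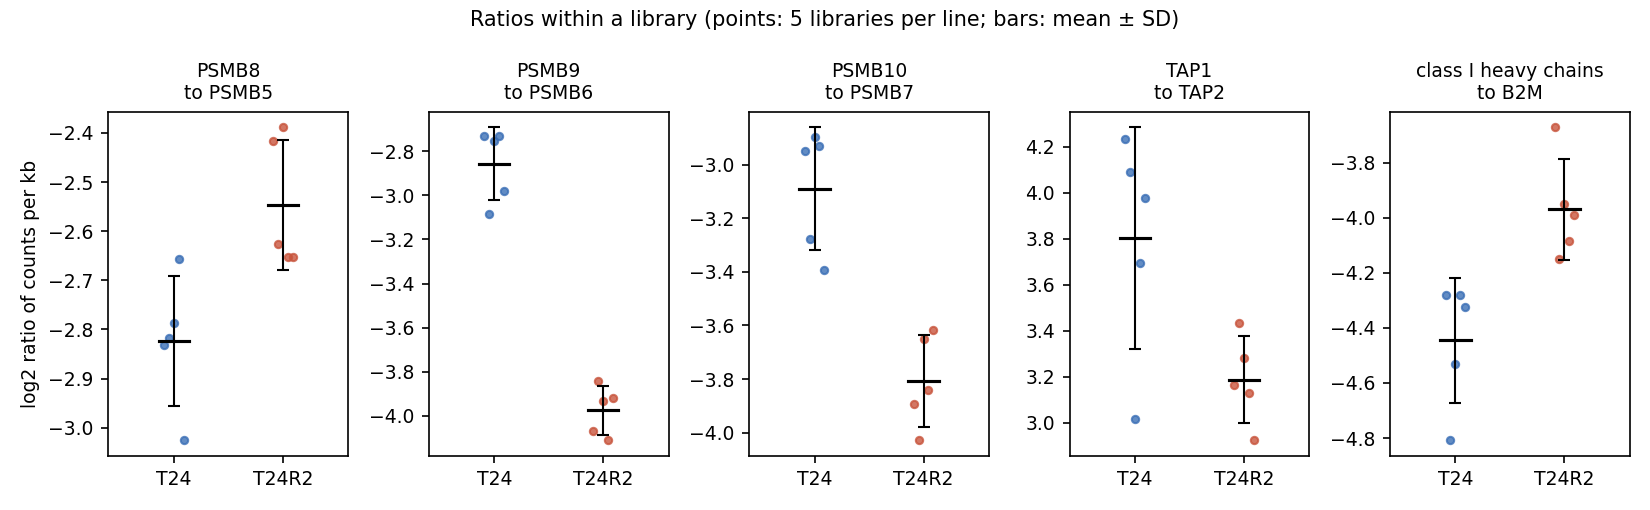
Log2 ratios of counts per kb of exon within each library, with T24 in blue, T24R2 in red and bars for the mean ± SD of 5 libraries; each panel has its own vertical range. PSMB8 to PSMB5 and class I heavy chains (HLA-B and HLA-C) to B2M were higher in T24R2, PSMB9 to PSMB6 and PSMB10 to PSMB7 lower, and TAP1 to TAP2 overlapped.

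Of 9 partners of the members in loading and trimming, 2 were called lower and 2 higher, beside 26.5% and 24.9% of all genes tested. CALR, the gene of calreticulin, fell from 1400 ± 29.4 to 621 ± 23.1 CPM (log2 fold change -1.17), and PDIA3, the oxidoreductase paired with tapasin, fell from 708 ± 10.4 to 304 ± 12.2 CPM (-1.22). With TAPBP, 3 chaperones of the loading complex were thus called lower. CANX, the gene of calnexin, which folds heavy chains before they meet the light chain, had 385 ± 9.42 CPM in T24 and 532 ± 35.5 CPM in T24R2 and did not reach the fold limit (0.47). HM13, the signal peptide peptidase that releases the peptides bound by HLA-E, rose from 226 ± 3.43 to 354 ± 21.3 CPM (0.64), and the trimming peptidase LNPEP rose by 0.52. ERAP1, the main trimming enzyme of the endoplasmic reticulum, differed by 0.11 and was not called. The median log2 fold change of the list was -0.01.

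Among 8 proteasome partners, 2 were called lower and 2 higher, beside 26.5% and 24.9% of all genes tested. PSMB10, the remaining inducible catalytic subunit, fell from 19.6 ± 3.27 to 10.98 ± 0.88 CPM (-0.84), and POMP, the assembly factor of the proteasome, fell by 0.71 on the log2 scale. PSMB6 rose by 0.54 and PSME3, an activator found in the nucleus, by 0.82. The interferon-inducible activator genes PSME1 and PSME2 had log2 fold changes of -0.13 and -0.15 and were not called. Of 6 cytosolic peptidases, 0 were called lower and 1 higher, both smaller shares than those of all genes tested. The gene called was NPEPPS, the puromycin-sensitive aminopeptidase, which rose from 185 ± 8.43 to 377 ± 14.6 CPM (1.03). The median log2 fold changes of these lists were -0.12 and 0.08.

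Of 22 regulators of class I genes, 21 were tested, 4 were called lower and 2 higher, both smaller shares than the 26.5% and 24.9% of all genes tested. The 4 lower genes were among the 11 tested genes of interferon receptors and signalling. IFNAR2, a chain of the type I interferon receptor, fell from 22.2 ± 2.45 to 5.30 ± 0.87 CPM (-2.06) and IFNGR2, a chain of the interferon gamma receptor, from 98.1 ± 4.74 to 28.4 ± 2.78 CPM (-1.79). The transcription factor genes IRF1 and STAT2 fell by 0.69 and 0.54 on the log2 scale. The partner chains IFNAR1 and IFNGR1 had log2 fold changes of -0.22 and -0.28 and were not called. NLRC5, the class I transactivator, had 19.5 ± 1.999 CPM in T24 and 26.7 ± 2.36 CPM in T24R2, higher in all T24R2 libraries but under the fold limit (0.45). RFXANK and NFYA, subunits of the complexes that bind the X and Y boxes, rose by 0.61 and 0.51. NFKB1 and RELA had log2 fold changes of 0.39 and -0.29, neither of them called. The median of the 21 was -0.14.

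Of 14 class I-like genes, 9 were tested, 2 were called lower and 1 higher, beside 26.5% and 24.9% of all genes tested. FCGRT, a heavy chain of the neonatal Fc receptor that also binds beta-2-microglobulin, had 46.9 ± 2.55 CPM in T24 and 0.226 ± 0.133 CPM in T24R2, where it was near the level of 3 counts (0.277 CPM). MR1, which presents vitamin metabolites, fell from 13.0 ± 2.92 to 8.92 ± 0.81 CPM (-0.54). ULBP1, a ligand of the activating receptor NKG2D, rose from 0.919 ± 0.429 to 18.04 ± 1.59 CPM (4.27). HLA-F and HFE, with -0.07 and 0.06, were not called, and HLA-G was at 0 counts in all libraries, which allows up to 3 counts or 0.260 to 0.343 CPM per library. The median of the 9 tested was 0.13.

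Class II genes were mostly at or near 0, as 5 of 12 had no count in any library and 5 were tested. HLA-DRA, HLA-DRB1, HLA-DQA1, HLA-DQB1 and HLA-DOA were those without counts. CD74, the invariant chain, fell from 25.4 ± 2.22 to 0.203 ± 0.214 CPM, and CIITA, the class II transactivator, from 33.0 ± 2.27 to 16.6 ± 1.54 CPM (-0.99). HLA-DPA1 was called lower (-0.62) although its libraries overlapped, and HLA-DPB1 was not called (-0.41). The median of the 5 tested was -0.62.

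**Figure D3:**
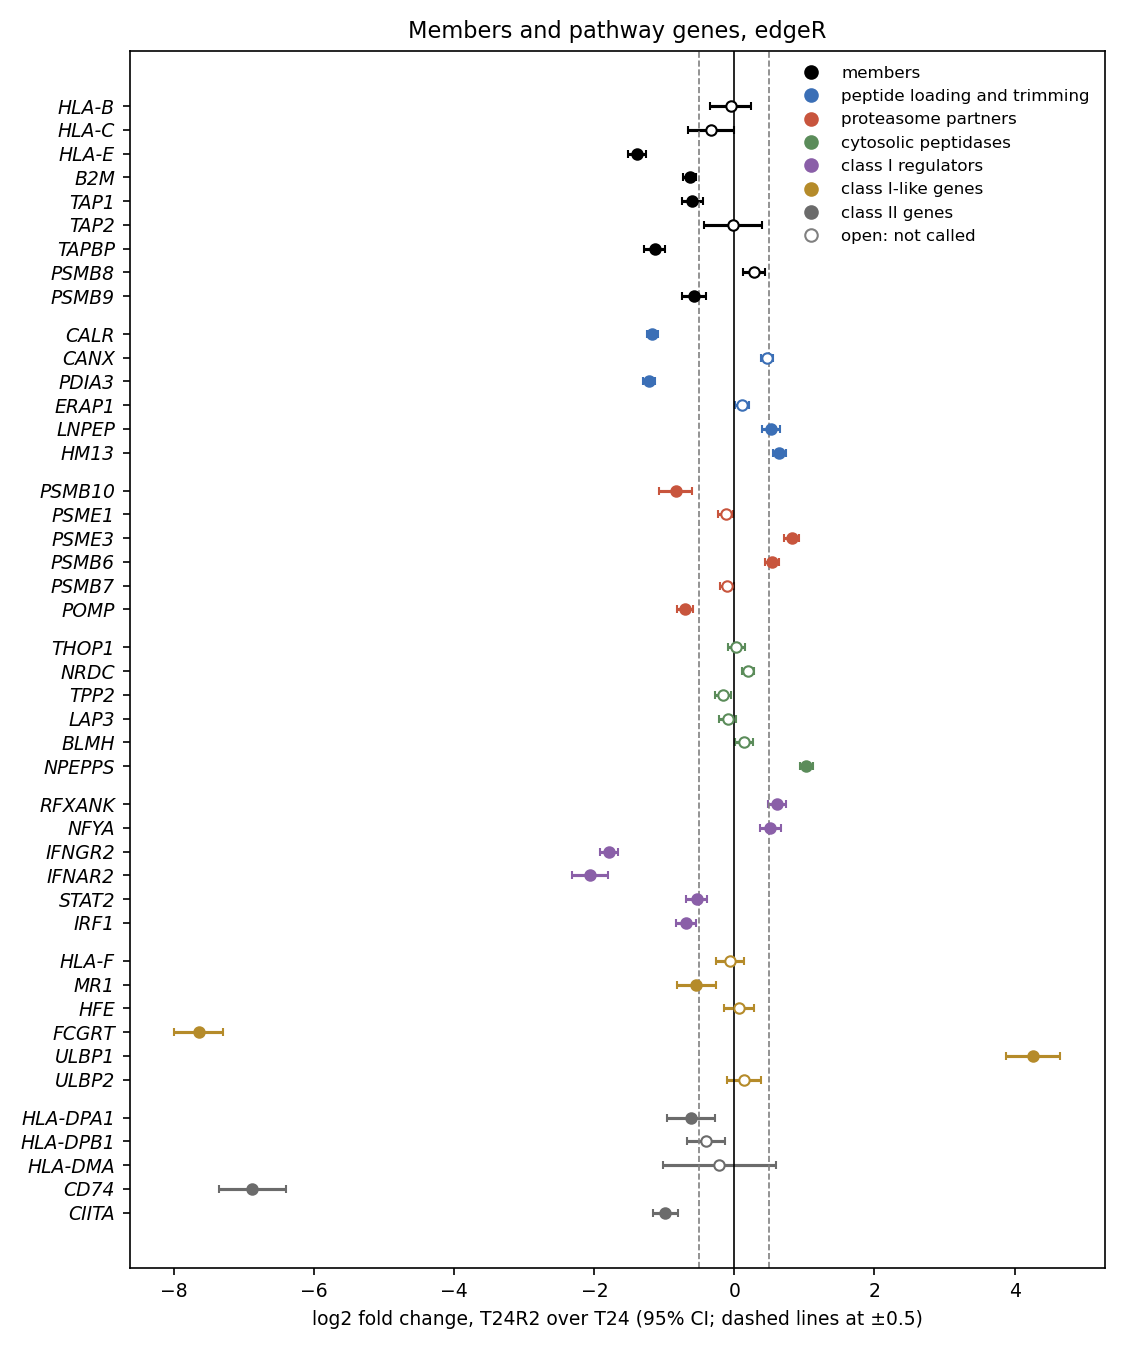
Log2 fold changes of T24R2 over T24 with 95% confidence intervals from edgeR for the 9 members and for up to 6 tested genes of each pathway list; filled points were called, open points were not, and dashed lines mark the fold limit of 0.5. FCGRT (-7.65) and CD74 (-6.89) lie farthest to the left, ULBP1 (4.27) farthest to the right (fitted values for genes near 0 in 1 line, which depend on the prior count), and HLA-E (-1.39) is the lowest of the members.

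The members other than B2M lie in the major histocompatibility complex, so the region was described as a whole, from the start of HLA-F to the end of TAPBP at chr6:29722775-33314254. Of 89 tested genes there, 19 were called higher and 19 lower, and the median log2 fold change was 0.01. Each count was 21.3% of the 89, beside 24.9% higher and 26.5% lower of all genes tested. Without the members, 19 of 81 were called higher and 15 lower. On the rest of chromosome 6 the median was 0.32, with 245 genes called higher and 109 lower of 667. The genes next to the called members differed among themselves. RGL2, beside TAPBP, had a log2 fold change of -1.24, close to the -1.14 of TAPBP, and DAXX on its other side had -0.41. GNL1 and HCG18, on either side of HLA-E, had -0.53 and 0.96.

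Genes around B2M on chromosome 15 were described in the same way, in a window of 1 Mb on each side that was chosen with results in view. Of 28 tested genes other than B2M, 0 were called higher and 18 lower. Their median log2 fold change was -0.61, beside -0.64 for B2M and -0.02 for the 537 other tested genes of that chromosome, of which 153 were called higher and 160 lower. PDIA3, the loading partner described above, lies in this window. Neighbouring genes are not independent of each other.

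**Figure D4:**
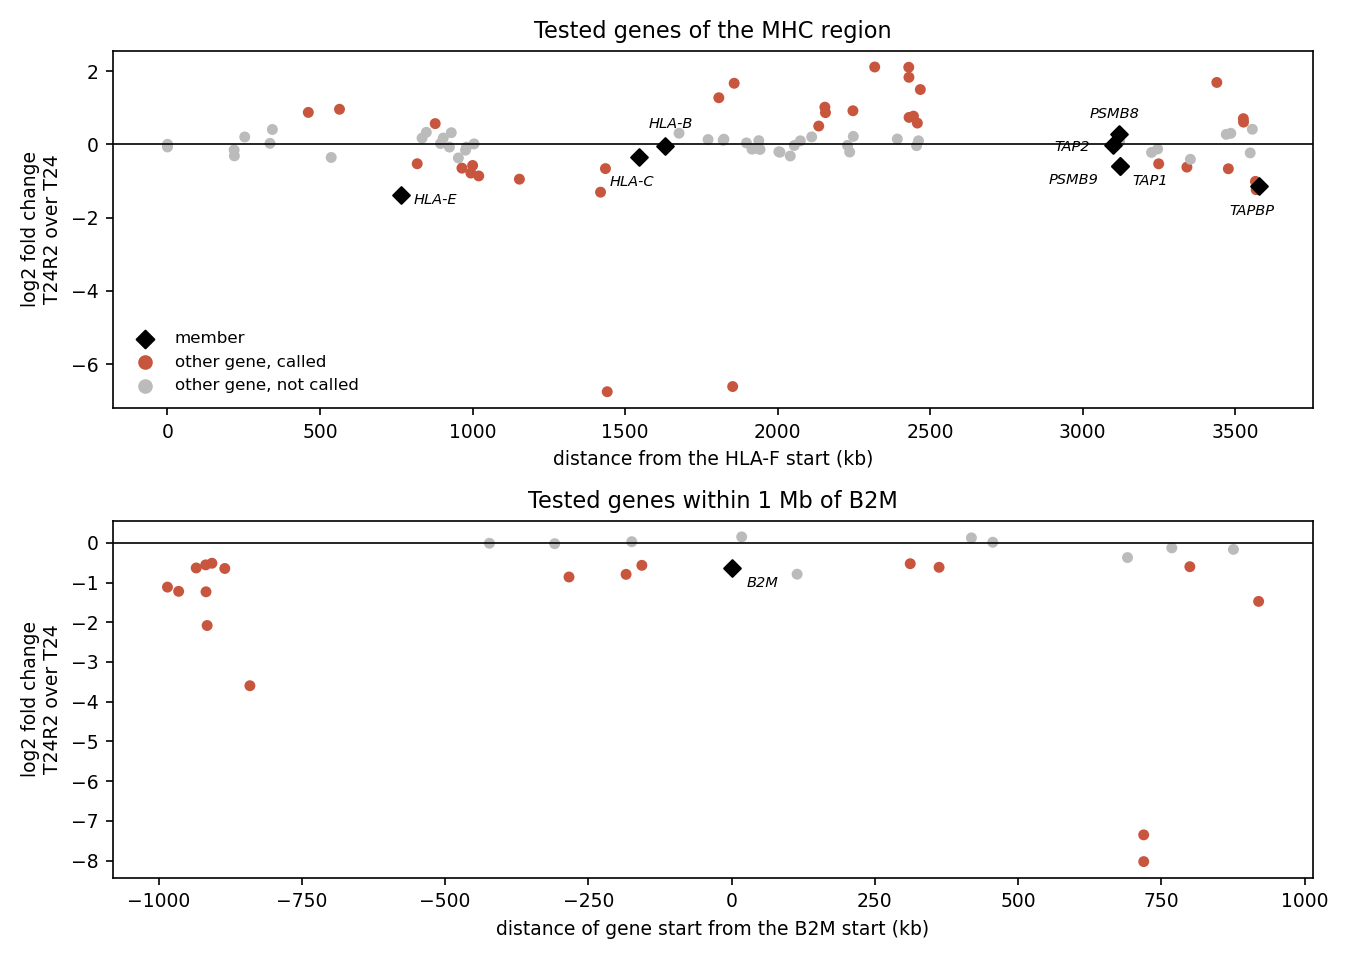
Log2 fold changes of T24R2 over T24 for tested genes by distance in kb, from the start of HLA-F across the MHC region (top) and from the start of B2M (bottom), with members as black diamonds, other called genes in red and genes not called in grey. In the top panel called genes lie on both sides of 0 (19 higher, 19 lower), and in the bottom panel all 18 called neighbours of B2M lie below 0.

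The profile of HLA-E over the 10 libraries was compared with that of 6531 genes that averaged 32 CPM or more, as the root mean square difference of centred log2 CPM. The most similar genes were GOLGA2, UGCG, SUCLG2, NMNAT2 and EREG, with differences of 0.10 to 0.11. Their log2 fold changes were between -1.27 and -1.55. The order of the T24 libraries was also alike between members, a point noted after the values were seen. T24 replicate 4 was among the 2 highest T24 libraries for 9 of 9 members, and T24 replicate 2 was the lowest for 7 of 9. Their total counts were 9803565 and 10177566, inside the range of 9257843 to 10840954 of all libraries. The number of members called lower was 5 in each of 10 fits that left out 1 library.

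Markers of other cells were at or near 0. None of 9 leukocyte markers passed the count filter, and their summed level was 1.08 to 3.12 CPM in T24 and 0.885 to 1.99 CPM in T24R2, with MS4A1 at 0 in all libraries. Of 14 urothelial markers 9 were tested, and all 9 were called lower, beside 26.5% of all genes tested. Their summed level was 5009 to 5743 CPM in T24 and 3028 to 3232 CPM in T24R2. The keratin gene KRT19 fell from 267 ± 7.23 to 0.0887 ± 0.124 CPM, with at most 3 counts in any T24R2 library. KRT7, KRT8 and KRT18, also among the 9 called lower, still had 1370, 1009 and 691 CPM in T24R2. GATA3 fell from 22.1 ± 2.004 to 0.214 ± 0.210 CPM, and KRT20 was at 0 in all libraries. The part of this difference in the results for class I genes was not tested.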

How the data were processed

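RNA-seq was measured in 5 T24 and 5 T24R2 libraries. The authors mapped read pairs onto hg38 (STAR 2.7.0), removed duplicates and reads with several mapping places (samtools 1.10), and deposited raw fragment counts per gene of GENCODE release 39 from featureCounts 2.0.1 with strand option 1. The kit is not described as strand-specific, so a gene and one that overlaps it on the opposite strand cannot be fully told apart. Removal of duplicates may lower the most abundant genes. Total counts were 9257843 to 10840954 per library, and in all 20 pairs of replicates the chi-square divided by its degrees of freedom was 2.01 to 7.04, above sampling noise. Floors and counts near 0 cover counting error only.

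The counts were analysed in R 4.3.3 with edgeR 4.0.16 (filterByExpr, TMM, glmQLFit, glmQLFTest) on 16181 genes, with Benjamini-Hochberg adjustment. Calls needed an adjusted p under 0.05 with a log2 fold change beyond 0.5 in size. CPM used TMM-scaled library sizes. Alternatives used limma 3.58.1, DESeq2 1.42.0 and apeglm 1.24.0, other scalings and filters, other limits, overlapping or related genes taken off or summed, a replicate block, and each library left out. Exact permutation tests used SciPy 1.17.1, overlaps bedtools 2.31.1, alignments Biopython 1.88 and plots matplotlib 3.10.9. Every count test was tested on simulated counts. Symbols were matched for 61415 of 61533 genes. The numbers of the replicates did not pair the samples. Results of some list genes are not reported here.

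The members, gene lists and tests were chosen with earlier results of these data known. Named list genes were those called, by adjusted p, then the most abundant, up to 6 per list; RFXANK, NFYA and other called genes fall under this rule, whereas PSME2, IFNAR1, IFNGR1, NLRC5, NFKB1, RELA, HLA-G, the class II genes without counts, KRT8, KRT20, MS4A1 and the neighbours RGL2, DAXX, GNL1 and HCG18 were named after their values were seen. Alternatives added after seeing the data were PSMB8-AS1 counts alone taken off, HLA-B and HLA-C summed, transcript length in place of exon length, and other settings for the genes around the members.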

Additional observations from a re-analysis of the deposited data

Results flagged for a closer look

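Among 124 groups of 5 libraries examined, 4 held a library set apart from the rest by more than the 95% critical value of Dixon's test, beside the 6.2 that chance alone would give. PSMB8 was at 50.01 CPM in T24R2 replicate 1 and at 40.7 to 41.9 CPM in the other 4 T24R2 libraries. PSMB10 was at 12.5 CPM in T24R2 replicate 5 and at 10.2 to 10.9 CPM in the others. BLMH, a cytosolic peptidase, was at 49.6 CPM in T24 replicate 3 and at 47.3 to 47.9 CPM in the others. CD79A, a marker of B cells, was at 0.538 CPM in T24 replicate 4 and at 0 to 0.108 CPM in the others.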

How the results depend on the processing

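The log2 fold changes of HLA-E and TAPBP stayed called under all alternatives run, from -1.40 to -1.22 and from -1.15 to -0.98. With no scaling beyond library size the median over all genes moved on the log2 scale from 0.01 to 0.18, 2 members were called lower in place of 5, and B2M (-0.48), TAP1 (-0.44) and PSMB9 (-0.41) missed the fold limit, while HLA-B turned to 0.11, TAP2 to 0.15, the median of the MHC region to 0.17 and that of the genes around B2M to -0.45. Upper-quartile scaling turned HLA-B to 0.025 and TAP2 to 0.058, and limma-voom turned TAP2 to 0.024; none of these values passed the test. Summing all class I genes gave -1.22, called, in place of HLA-B and of HLA-C, and summing HLA-B and HLA-C alone gave -0.17, not called. At a limit of 1 on the log2 scale, 2 members were called lower, and 2 loading and trimming genes, 0 proteasome partners, 2 regulators and 1 class II gene were called. By adjusted p alone, 1 member was called higher, PSMB8, and 8 loading and trimming genes, 4 cytosolic peptidases and 17 regulators were called. Without 1 library, the log2 fold change of HLA-B was -0.16 to 0.051 and that of TAP2 was -0.10 to 0.14; HLA-B was above 0 without T24 replicate 4 or T24R2 replicate 2, and TAP2 without T24 replicates 3 or 4 or T24R2 replicates 2 or 3. The difference of the TAP1 to TAP2 ratio was -0.81 to -0.51 in those settings. Causes of these changes were not tested.

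Samples with the same replicate number did not deviate together (correlations -0.021 to 0.0155), so the numbers were not taken as pairs. With a replicate block TAP2 had a log2 fold change of 0.0049, and no call of a member changed. In paired exact permutation tests over 5 pairs, which cannot give a p below 0.0625, the differences of 0.28 (PSMB8 to PSMB5), -1.12 (PSMB9 to PSMB6), -0.72 (PSMB10 to PSMB7) and 0.48 (class I heavy chains to B2M) had p = 0.0625 and that of -0.62 (TAP1 to TAP2) had p = 0.125. Taking off all counts of genes on the opposite strand was not run for PSMB9, where it left no counts in any library, or for PSMB8, where it left counts in 1 of 5 T24 libraries (49) and in 5 of 5 T24R2 libraries (107 to 236). At 31 to 113 fragments per library, TAP2, HLA-B and HLA-C had the widest intervals of the members, so depth limits them most.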
